A study of Mus musculus with 22 samples.

Results

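Immunoglobulin genes counted in samples of a murine leukemia line were examined. The set held the heavy-chain variable genes Ighv12-3 and Ighv5-6, the kappa variable genes Igkv4-91 and Igkv4-77, and the constant genes Ighm, Ighd and Igkc. They are 7 of the 17023 genes, and 9 of the 62492 transcripts, in the deposited table of RNA sequencing counts, since Ighm and Ighd each have a secreted and a membrane form. The variable genes were chosen from the measured counts, as the 2 most counted Ighv and the 2 most counted Igkv genes over the series, so that their rank is a description and not a finding. Whether Ighv5-6 and Igkv4-77 belong to the B-cell receptor of the leukemia was not tested. The constant genes are those of IgM, IgD and the kappa chain.

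The cells are TCL1-355 TKO, a line derived from the Eμ-TCL1 transgenic mouse model of chronic lymphocytic leukemia (CLL) that carries introduced biallelic loss-of-function lesions, among them those of CDKN2A and CDKN2B. All groups shared this line and these lesions. NFKBIE-ko cells had exon 2 of Nfkbie, the gene of the NF-kB inhibitor IκBε, targeted with a Cas9 ribonucleoprotein, and NFKBIE-wt cells are the samples titled MOCK. Cells of each genotype were first grown apart for 21 days, in 2 propagating mice in all, then injected into the peritoneal cavity of C57BL/6 recipients aged 2 to 3 months and collected 10 days later from the spleen (4 samples per genotype) and the peritoneal cavity (PC, 4 samples per genotype). The in vitro groups (3 samples per genotype) were cells taken from mouse spleens and cultured for 2 weeks. The cells from mice were not purified, so that host cells were present, and the genotype cannot be told apart from the propagating mouse. Spleen and PC samples came from the same set of recipient mice, but the labels do not tie one to the other, so they were compared as independent samples. Nothing in the labels says that the in vitro samples were separate edits, so p-values measure the spread between these samples only.

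The 22 libraries were of even depth, with 24036763 to 26581304 estimated counts each. A pair of libraries stood apart from their labels. The library labelled wt spleen replicate 4 held a summed erythroid marker level of 5.72 CPM (counts scaled to the library total) and a granulocyte level of 0.116 CPM, against 209 to 1586 and 58.5 to 369 in the other wt spleen libraries, and its nearest library was wt in vitro replicate 1. The library labelled wt in vitro replicate 3 held 1007 and 187 CPM of these markers, against 6.75 to 23.6 and at most 3.48 in the other in vitro libraries, and its nearest library was wt spleen replicate 1. Both are kept under their labels below, and the main results of spleen and in vitro comparisons are followed by their values without them. Nfkbie, whose RNA an indel need not lower, lay at a median of 74.2 CPM in wt and 109 CPM in ko spleen (log2 fold change 0.19, adjusted p = 0.910, or 0.58 and 0.519 without wt spleen replicate 4), 78.6 and 51.2 CPM in the PC (−0.68, adjusted p = 0.0248), and 115 and 55.7 CPM in vitro (−1.15, adjusted p = 0.863, or −1.53 and 0.275 without wt in vitro replicate 3). The B-cell markers Cd79a, Cd79b, Ms4a1, Pax5 and Cd22 were detected in all groups.

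As background, each B cell assembles 1 heavy-chain and 1 light-chain variable region by joining gene segments, and its daughters inherit that choice, so that a clonal leukemia transcribes mainly 1 variable gene of each kind. The heavy-chain variable region is spliced to Ighm, and in naive cells also to Ighd, while the kappa variable region is spliced to Igkc. Alternative 3′ ends of the Ighm transcript give either a membrane form, the antigen receptor that pairs with CD79A and CD79B, or a secreted form, the antibody that plasma cells release. The pair of Ighv12-3 with Igkv4-91 is a classic receptor of B-1 cells that binds phosphatidylcholine, the specificity described for this line.

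The variable genes are set out first by sequence, in the mouse genome build GRCm39 and on the minus strand, 5′ to 3′. Variable genes carry an octamer bound by POU2 factors in their promoters, ATGCAAAT in heavy-chain genes and its reverse complement ATTTGCAT in kappa genes, and all 4 members had 1 such octamer (capitals) within the 250 bases before the annotated start. The windows shown lie at chr12:114330662-114330701 (Ighv12-3), chr12:113589686-113589725 (Ighv5-6), chr6:68746170-68746209 (Igkv4-91) and chr6:69088500-69088539 (Igkv4-77). Between the octamer and the annotated start lie 103, 125, 98 and 99 bases.
Ighv12-3: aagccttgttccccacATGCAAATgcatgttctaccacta
Ighv5-6: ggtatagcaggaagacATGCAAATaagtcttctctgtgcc
Igkv4-91: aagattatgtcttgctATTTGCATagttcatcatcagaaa
Igkv4-77: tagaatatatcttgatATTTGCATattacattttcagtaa
The octamer, searched on both strands, was found in the same window of 127 of 183 annotated Ighv genes (69.4%) and 93 of 160 Igkv genes (58.1%), but in 2.04% of all 78287 annotated genes. The less counted Ighv5-6 and Igkv4-77 carried it as the dominant genes did.

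The 2 kappa genes are close relatives, which bears on how reads were divided between them. The start of the V exon is printed for both, with capitals at the bases that differ, from chr6:68745698-68745847 (Igkv4-91) and chr6:69088047-69088190 (Igkv4-77).
Igkv4-91: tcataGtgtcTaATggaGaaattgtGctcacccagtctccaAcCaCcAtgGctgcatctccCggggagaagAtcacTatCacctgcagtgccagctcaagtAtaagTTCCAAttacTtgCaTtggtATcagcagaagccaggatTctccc
Igkv4-77: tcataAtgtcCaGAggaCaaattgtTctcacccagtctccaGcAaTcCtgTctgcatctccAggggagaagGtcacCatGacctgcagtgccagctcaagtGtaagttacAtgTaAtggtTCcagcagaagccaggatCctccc
In this stretch 28 of 150 aligned columns differed, 6 of them gaps in Igkv4-77. Over the whole V exon the pair was 84.5% identical. The annotation names Igkv4-77 a variable pseudogene, and 66.8% of its stretches of 31 bases also occur in other genes, so that its counts are uncertain. For Igkv4-91 this held for 36 of 328 such stretches.

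The heavy-chain genes are far apart in sequence, as the same part of their V exons shows, at chr12:114330301-114330450 (Ighv12-3) and chr12:113589283-113589432 (Ighv5-6).
Ighv12-3: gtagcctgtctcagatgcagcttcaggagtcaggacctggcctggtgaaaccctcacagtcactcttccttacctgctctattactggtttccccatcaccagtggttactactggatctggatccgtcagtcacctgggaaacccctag
Ighv5-6: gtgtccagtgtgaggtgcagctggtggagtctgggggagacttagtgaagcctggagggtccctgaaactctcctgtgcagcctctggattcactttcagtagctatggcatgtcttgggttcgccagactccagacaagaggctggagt
These V exons were 58.9% identical, with 130 of 316 columns different. Ighv12-3 shared 2.17% of its stretches of 31 bases with other genes, so its reads are close to unique. Ighv5-6 shared 41.2%, its nearest relative in the table being Ighv5-4 at 95.4% identity, and reads of the Ighv5 family could have been split between them.

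The 2 forms of Ighm differ only at their 3′ ends, and the bases that tell them apart are printed from chr12:113384487-113384578 (secreted) and chr12:113382573-113382688 (the first membrane exon). In the secreted form lower case marks the last 30 coding bases shared by both forms and capitals the coding bases of the secreted form alone. In the membrane form the whole exon is its own.
Ighm secreted: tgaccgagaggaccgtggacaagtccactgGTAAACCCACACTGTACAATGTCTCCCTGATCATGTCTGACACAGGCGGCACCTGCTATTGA
Ighm membrane: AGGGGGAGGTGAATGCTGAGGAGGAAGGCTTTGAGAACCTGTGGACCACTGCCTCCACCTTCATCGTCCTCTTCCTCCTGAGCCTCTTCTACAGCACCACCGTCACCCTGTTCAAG
The secreted transcript has 188 bases of its own out of 1493, and the membrane transcript 393 out of 1698. Their division between the forms by SALMON therefore rested on reads that touch these bases, whereas the sum over both forms did not depend on it. No stretch of 31 bases of Ighm was found in another gene.

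On the genome the heavy-chain members lie on chromosome 12 and the kappa members on chromosome 6. Ighv12-3 spans chr12:114330141-114330574 in 2 exons, a leader exon and the V exon, and Ighv5-6 spans chr12:113589126-113589576. Igkv4-91 spans chr6:68745539-68746087 and Igkv4-77 chr6:69087888-69088416. Ighm reads from chr12:113386350 down to 113384361 in the secreted form (4 exons) and to 113382178 in the membrane form (6 exons), with Ighd next to it at chr12:113370224-113379944. Igkc is the only member on the plus strand, a single exon at chr6:70703419-70703950.

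Ighv12-3 and Igkv4-91 held nearly all variable-gene counts of the series. Ighv12-3 took 93.9% of the counts of the 37 Ighv genes and Ighv5-6 took 5.57%, with Ighv5-12 at 0.133% just outside the members. Igkv4-91 took 90.7% of the counts of the 69 Igkv genes and Igkv4-77 took 7.58%, with Igkv4-70 at 0.695% next. These shares chose the members and carry no test.

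**Figure D1:**
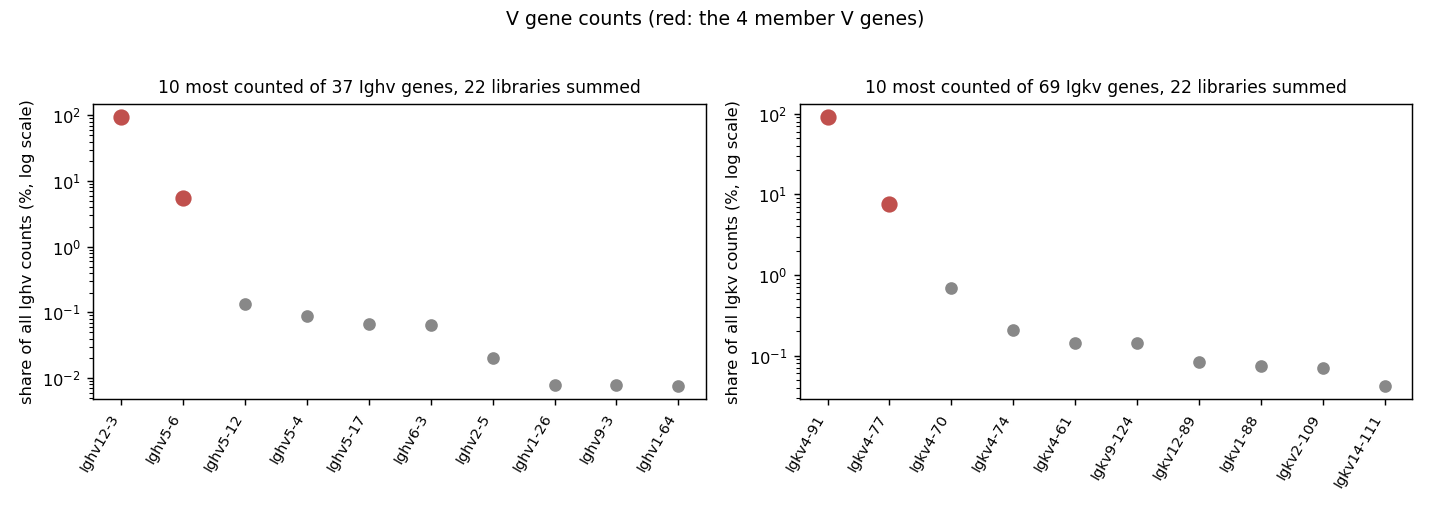
Share of all counts of the Ighv genes (left) and of the Igkv genes (right) over the 22 libraries, in percent on a log axis, for the 10 most counted genes of each family, with the 4 member genes in red. Ighv12-3 at 93.9% and Igkv4-91 at 90.7% stand more than 10 times above Ighv5-6 at 5.57% and Igkv4-77 at 7.58%, and the next genes lie at 0.133% and 0.695%.

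The order of the V genes was the same in every library, but the second gene varied more than the first. Igkv4-77 held 4.81 to 13.9 counts per 100 counts of Igkv4-91. Ighv5-6 held 3.13 to 12.5 counts per 100 of Ighv12-3, the lowest in ko PC (3.13 to 3.36) and the highest in ko spleen (10.3 to 12.5), with wt spleen at 3.78 to 9.84 and wt PC at 3.43 to 6.81. All other Ighv genes together reached 1.01 to 16.4 CPM per library (median 2.89), and all other Igkv genes 19.3 to 41.9 CPM (median 25.8). These sums count transcripts of host B cells and reads placed on a relative of the clonal genes alike, which were not told apart.

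Levels per kilobase are given for single transcripts, with the 2 forms of Ighm apart. The mean level over the 22 libraries was 6121 CPM per kb for Igkc and 3989 for Igkv4-91. It was 2706 for secreted Ighm, 1807 for Ighv12-3 and 1560 for membrane Ighm. Igkv4-77 at 341 and Ighv5-6 at 107 CPM per kb were an order lower, and membrane Ighd, at 14.8, was about 100 times less abundant than membrane Ighm. Secreted Ighd was above 0 in 15 of the 22 libraries and never above 2.78 CPM, and it is not followed further. The 9 member transcripts together made up 0.904% to 2.22% of all counts in a library and 89.3% to 95.4% of its immunoglobulin counts. Their share of all counts had a median of 1.42% in wt and 0.962% in ko spleen, 1.28% and 0.976% in the PC, and 1.55% and 1.06% in vitro. In bulk samples fewer leukemia cells and less RNA per cell cannot be told apart.

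**Figure D2:**
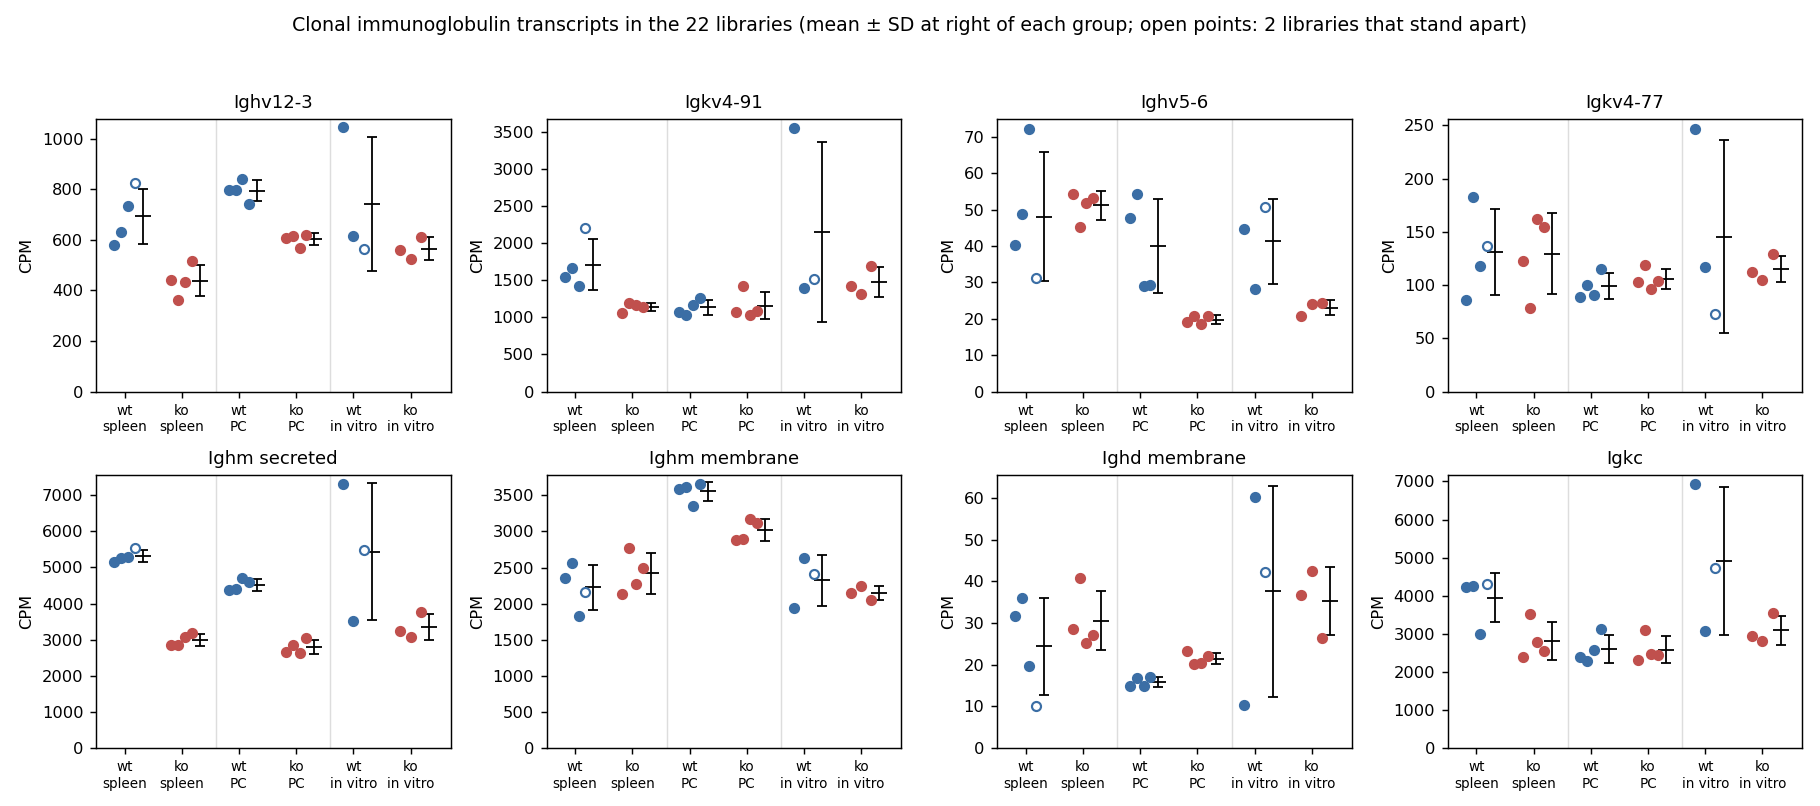
Level of each member transcript but secreted Ighd in the 22 libraries in CPM, with 1 panel per member, each axis starting at 0, points for libraries by group and the mean ± SD beside them, and open points for the 2 libraries that stand apart. Secreted Ighm lies at 4367 to 5544 CPM in the wt and 2636 to 3180 CPM in the ko libraries of spleen and PC.

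Ighm, the constant gene of the leukemia's IgM, was lower in NFKBIE-ko than in NFKBIE-wt libraries in all 3 compartments, though the in vitro difference did not pass. With the 2 forms summed, it lay at 7742 ± 143 CPM in wt and 5311 ± 365 CPM in ko spleen (SD, n = 4), at 8179 ± 168 and 5616 ± 170 CPM in the PC (n = 4), and at 7873 ± 1712 and 5538 ± 326 CPM in vitro (n = 3). The lowest of the 11 wt libraries (6073 CPM, in vitro) was above the highest of the 11 ko libraries (5908 CPM, in vitro), so that the genotypes did not overlap, with or without the libraries that stand apart. Such a separation, with every ko library below every wt library, was found for 27 of 8891 genes with a mean of at least 10 CPM (0.304%).

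On counts summed per gene, edgeR's quasi-likelihood test gave a log2 fold change for Ighm of −0.54 (SE 0.11, adjusted p = 0.0260) in the spleen, where 2.94% of genes passed as lower. In the PC it was −0.55 (SE 0.07, adjusted p = 0.000113), where 20.7% of genes passed as lower. In vitro it was −0.51 (SE 0.18, adjusted p = 0.528), and no gene passed as lower there. The differences between these effects, tested on all 22 samples, were −0.03 for spleen less PC (SE 0.14, adjusted p = 0.947), −0.04 for spleen less culture (SE 0.15, adjusted p = 0.937) and −0.02 for PC less culture (SE 0.15, adjusted p = 0.985). With the libraries that stand apart left out they were 0.03, −0.03 and −0.06 (adjusted p of 0.940, 1.000 and 0.927). Without wt spleen replicate 4 the spleen value was −0.53 (adjusted p = 0.0335), and without wt in vitro replicate 3 the in vitro value was −0.49 (adjusted p = 0.545). The spleen call was lost without wt spleen replicate 1 (adjusted p = 0.0706) or 3 (0.0637), or without ko spleen replicate 1 (0.109), 3 (0.100) or 4 (0.0870), at log2 fold changes of −0.55 to −0.51. The in vitro difference passed without wt in vitro replicate 2 (−0.67, adjusted p = 0.0377).

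Most of that difference lay in the secreted form. In the wt spleen libraries, replicates 1 to 4 held 5154, 5271, 5290 and 5544 CPM of secreted Ighm, and the ko spleen libraries 2858, 2847, 3074 and 3180 CPM. In the PC it stood at 4367, 4408, 4713 and 4586 CPM in wt and at 2665, 2855, 2636 and 3050 CPM in ko. Every wt library of both compartments was above every ko library. In vitro the values were 7312, 3526 and 5472 CPM in wt and 3248, 3063 and 3753 CPM in ko, and there the groups overlapped, since wt replicate 2 lay below ko replicate 3.

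Membrane Ighm, the receptor form, differed much less. It held 2354, 2562, 1824 and 2161 CPM in wt spleen and 2129, 2770, 2278 and 2495 CPM in ko spleen, which overlapped throughout. The PC libraries held 3590, 3620, 3356 and 3655 CPM in wt and 2888, 2890, 3170 and 3123 CPM in ko, where the groups did not overlap. In vitro it held 1933, 2628 and 2405 CPM in wt and 2143, 2243 and 2049 CPM in ko, again with overlap.

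Transcript by transcript, 1 of the 9 members passed an adjusted p of 0.05 in the spleen, as lower in ko, where 0.354% of all tested transcripts passed (0.153% higher and 0.201% lower). Of the PC members, 1 passed as higher and 4 as lower, where 13.0% of transcripts passed (7.89% higher and 5.07% lower). In culture 0 members passed (0%). In vitro no transcript of 33361 passed by edgeR, 1774 had an unadjusted p under 0.05, 2 of them members, and DESeq2 called 114 transcripts higher and 110 lower past 2-fold but no member. The median log2 fold change of the members was −0.14 for the spleen, −0.03 for the PC and −0.40 for culture, against −0.01, −0.01 and −0.02 over all tested transcripts. The study's threshold for a differentially expressed transcript, an adjusted p under 0.05 with more than a 2-fold change, was met by 0 members in the spleen (0.312%), by 1 in the PC, the lower Ighv5-6 (6.05%, with 1.91% lower), and by 0 in vitro (0%).

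In the spleen the member that fell was secreted Ighm, with a log2 fold change of −0.85 (SE 0.10, adjusted p = 0.0234), while membrane Ighm stood at 0.10 (SE 0.14, adjusted p = 0.849). Without wt spleen replicate 4 the secreted form stood at −0.84 (adjusted p = 0.0273) and the membrane form at 0.08 (adjusted p = 0.903). The estimate moved little when other spleen libraries were left out, but the call was lost without wt replicate 1 (adjusted p = 0.0819), 2 (0.0547) or 3 (0.0657), or without ko replicate 1 (0.117), 3 (0.106) or 4 (0.0941), at log2 fold changes of −0.88 to −0.84.

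Jchain and Sdc1, 2 of 6 plasma-cell markers, also passed as lower in ko spleen. Jchain, which joins IgM into pentamers, fell by 2.53 on the log2 scale (SE 0.40, adjusted p = 0.0492), from 7.71 to 21.0 CPM in wt to 1.46 to 2.69 CPM in ko. Sdc1, the plasma-cell surface proteoglycan CD138, fell by 2.23 (SE 0.31, adjusted p = 0.0328), from 5.80 to 9.56 CPM to 1.04 to 2.14 CPM. Both passed without wt spleen replicate 4, Jchain at −2.64 (adjusted p = 0.0436) and Sdc1 at −2.11 (adjusted p = 0.0413), but both lost their calls without any other single spleen library, at adjusted p of 0.0780 to 0.183 for Jchain and 0.0668 to 0.133 for Sdc1. The summed level of all 6 plasma-cell markers overlapped, at 696 to 1313 CPM in wt and 617 to 913 CPM in ko spleen, with none of the 6 at 0. The 6 B-cell markers summed to 1748 to 2235 CPM in wt and 1596 to 2071 CPM in ko spleen. Their ranges overlapped, with a lower median in ko (1610 CPM) than in wt (2164 CPM). Of the marker lists of other cell types, 3 were higher in ko spleen. T-cell markers, 10 genes, summed to 96.0 to 129 CPM in wt and 153 to 204 CPM in ko spleen, the 9 macrophage and monocyte markers to 24.8 to 79.5 and 88.6 to 345 CPM, and the 4 NK-cell markers to 2.63 to 6.72 and 9.62 to 30.7 CPM, without overlap and with none of them at 0. In ko culture the T-cell list summed to 145 to 159 CPM, with 5 of its 10 genes at 0. Its sum therefore need not come from host T cells. The part of these cell types in the spleen results was not tested.

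In the PC, secreted Ighm fell by 0.71 on the log2 scale (SE 0.07, adjusted p = 0.000508) and membrane Ighm by 0.25 (SE 0.06, adjusted p = 0.0295). The secreted form passed with any 1 PC library left out, between −0.75 and −0.69 with adjusted p of 0.00169 to 0.00371. The call of the membrane form was lost without wt PC replicate 1 (adjusted p = 0.0771) or 2 (0.0792), or without ko PC replicate 1 (0.0759), 2 (0.0847) or 4 (0.0592). In vitro the secreted form stood at −0.71 (SE 0.28, adjusted p = 0.863) and the membrane form at −0.12 (adjusted p = 0.894). The secreted form stood at −0.42 without wt in vitro replicate 1 (adjusted p = 0.706), −0.94 without replicate 2 (0.160) and −0.69 without replicate 3 (0.894), where the membrane form stood at −0.08 (0.999).

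Markers of other cell types also differed in the PC, beside every PC result given here. The 9 macrophage and monocyte markers summed to 555 to 1709 CPM in wt and 3754 to 5555 CPM in ko PC, with none of them at 0, and T-cell markers to 57.3 to 77.2 and 173 to 187 CPM. Stromal markers summed to 73.1 to 82.3 CPM in wt and 98.9 to 117 CPM in ko, and NK-cell markers overlapped at 7.55 to 20.8 and 15.99 to 29.3 CPM. Granulocyte markers went the other way, with 125 to 393 CPM in wt and 28.2 to 44.1 CPM in ko. The 6 B-cell markers went the same way, at 3016 to 3201 CPM in wt and 3519 to 3688 CPM in ko PC, whereas Ighm was lower in ko. The plasma-cell list lay at 853 to 1034 CPM in wt and 770 to 845 CPM in ko. The part of these cells in the PC results was not tested. In vitro the T-cell markers summed to 92.1 to 234 CPM in wt and 145 to 159 CPM in ko, where 5 of the 10 were at 0 (Trbc1, Trbc2, Cd8a, Cd8b1 and Cd28). The macrophage and monocyte markers summed to 32.5 to 79.3 and 33.3 to 42.2 CPM, with C1qa, C1qc and Fcgr1 at 0 in ko.

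**Figure D3:**
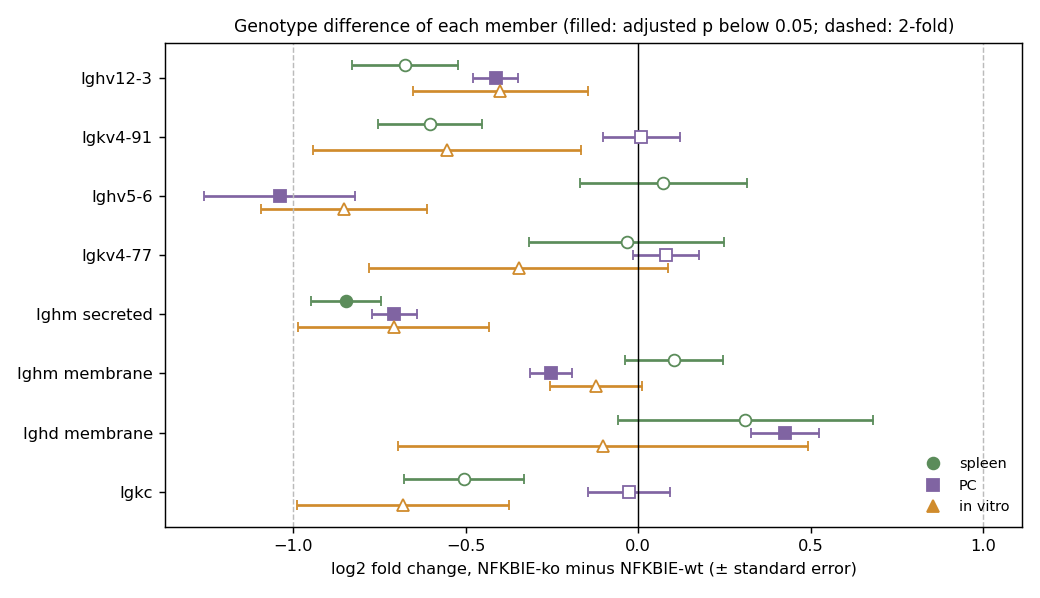
Log2 fold change of NFKBIE-ko over NFKBIE-wt for each member transcript but secreted Ighd, with bars for 1 SE, in the spleen (circles), PC (squares) and culture (triangles). Filled symbols passed an adjusted p of 0.05 and the dashed lines mark a 2-fold change. Secreted Ighm is at −0.85, −0.71 and −0.71, and Ighv5-6 in the PC at −1.04 is the filled symbol beyond the dashed line.

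Ighv12-3, the dominant heavy-chain V gene, was lower in ko than in wt libraries of the PC. The wt PC libraries held 797, 796, 842 and 741 CPM and the ko PC libraries 609, 617, 568 and 621 CPM, with no overlap. It fell by 0.41 on the log2 scale (SE 0.07, adjusted p = 0.00508) and kept its call with any 1 PC library left out (adjusted p of 0.00403 to 0.0213). In the spleen the libraries held 580, 632, 734 and 824 CPM in wt and 442, 364, 433 and 516 CPM in ko, which did not overlap either. The spleen estimate of −0.68 (SE 0.15) had an adjusted p of 0.143 by edgeR, and of 0.00867 by DESeq2 and 0.0313 on counts summed per gene. Without wt spleen replicate 4 it was −0.59 (adjusted p = 0.138). In vitro the values were 1045, 615 and 564 CPM in wt and 559, 525 and 613 CPM in ko, overlapping, at −0.40 (SE 0.25, adjusted p = 0.863), −0.55 without wt in vitro replicate 3 and −0.0521 without wt in vitro replicate 1.

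Igkv4-91, the dominant kappa V gene, was lower in ko spleen but not in ko PC, and neither difference passed the main test. In wt spleen it held 1548, 1661, 1425 and 2206 CPM and in ko spleen 1059, 1187, 1162 and 1145 CPM, without overlap, at −0.60 (SE 0.15, adjusted p = 0.168), and at −0.47 without wt spleen replicate 4 (adjusted p = 0.103). DESeq2 gave an adjusted p of 0.0196 and the counts summed per gene 0.0393. In the PC the values were 1078, 1027, 1170 and 1258 CPM in wt and 1078, 1423, 1028 and 1087 CPM in ko. Those groups overlapped, with an estimate of 0.01 (SE 0.11, adjusted p = 0.975), beside which Ighv12-3 and Ighm fell. In vitro the wt libraries held 3546, 1389 and 1517 CPM and the ko libraries 1421, 1310 and 1695 CPM, at −0.55 (SE 0.39, adjusted p = 0.865), or −0.74 without wt in vitro replicate 3 and 0.03 without wt in vitro replicate 1.

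Igkc, the kappa constant gene, gave estimates of the same order. It held 4219, 4264, 2987 and 4304 CPM in wt spleen and 2397, 3527, 2773 and 2545 CPM in ko spleen, where only wt replicate 3 fell among the ko values. The log2 fold change was −0.50 (SE 0.17, adjusted p = 0.311), and −0.47 without wt spleen replicate 4. In the PC it ranged from 2276 to 3116 CPM in wt and from 2300 to 3092 CPM in ko, at −0.03 (SE 0.12, adjusted p = 0.924). In vitro it was −0.68 (SE 0.31, adjusted p = 0.863), with 6936, 3066 and 4716 CPM in wt and 2927, 2795 and 3529 CPM in ko. It stood at −0.33 without wt in vitro replicate 1 (adjusted p = 0.751), −0.93 without replicate 2 (0.204) and −0.70 without replicate 3 (0.909). Reads of Igkc could also come from the opposite strand, since 491 of its 502 stretches of 31 bases are the reverse complement of the antisense gene Gm68839, and whether counting used strand is not given in the sources used here.

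Ighv5-6, the second heavy-chain V gene, was the 1 member past the 2-fold threshold between genotypes, in the PC. The wt PC libraries held 47.6, 54.2, 28.9 and 29.4 CPM and the ko PC libraries 19.0, 20.7, 18.4 and 20.8 CPM, so that wt formed a higher and a lower pair, both above ko. It fell by 1.04 on the log2 scale (SE 0.22, adjusted p = 0.0177). The call at an adjusted p of 0.05 was lost without wt PC replicate 1 (−0.94, adjusted p = 0.0510) or ko PC replicate 2 (−1.06, 0.0508) or 3 (−1.02, 0.0546), and without wt PC replicate 2 the change was −0.86, under 2-fold. In the spleen it held 40.1, 48.7, 72.3 and 31.1 CPM in wt and 54.3, 45.3, 51.7 and 53.3 CPM in ko, at 0.07 (SE 0.24, adjusted p = 0.949), and at −0.10 without wt spleen replicate 4. In vitro the values were 44.7, 28.2 and 50.8 CPM in wt and 20.7, 23.96 and 24.4 CPM in ko. Those did not overlap, at −0.85 (SE 0.24, adjusted p = 0.863), or −0.66 without wt in vitro replicate 3.

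The spleen effect of Ighv5-6 differed from its PC effect by 1.06 on the log2 scale (SE 0.34, unadjusted p = 0.00526, edgeR), with an adjusted p of 0.239. Without the libraries that stand apart the difference was 0.93 (adjusted p = 0.277). None of the 9 members passed the test of a difference in effect between compartments, where 0.223% of transcripts passed for spleen against PC, 0.00688% for spleen against culture and 0.0826% for PC against culture. At an unadjusted p under 0.05 there were 2, 1 and 1 members.

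Igkv4-77, the second kappa V gene and the most uncertain in its counts, showed no call between genotypes. It averaged 131 CPM in wt and 129 CPM in ko spleen, 98.9 and 106 CPM in the PC, and 146 and 115 CPM in vitro. The log2 fold changes were −0.03 (SE 0.28, adjusted p = 0.986), 0.08 (SE 0.10, adjusted p = 0.674) and −0.35 (adjusted p = 0.905), the first and last becoming −0.0214 (0.988) without wt spleen replicate 4 and −0.66 (0.903) without wt in vitro replicate 3.

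Membrane Ighd, the IgD constant gene, went the other way from Ighm in the PC. The wt PC libraries held 14.8, 16.8, 14.8 and 16.9 CPM and the ko PC libraries 23.1, 20.2, 20.5 and 22.01 CPM, without overlap. It rose by 0.42 (SE 0.10, adjusted p = 0.0250), a call lost without wt PC replicate 1 (adjusted p = 0.0738) or 3 (0.0726), or ko PC replicate 1 (0.0588), 3 (0.0583) or 4 (0.0723). On counts summed per gene the value was 0.39 (SE 0.10, adjusted p = 0.0111), which held with any 1 PC library left out. In the spleen it held 31.8, 35.9, 19.6 and 10.1 CPM in wt and 28.5, 40.9, 25.3 and 27.2 CPM in ko, at 0.31 (SE 0.37, adjusted p = 0.823), and at 0.05 without wt spleen replicate 4, which had the lowest value. In vitro the wt libraries spread from 10.3 to 60.3 CPM around ko values of 26.4 to 42.6 CPM, with an estimate of 0.01 without wt in vitro replicate 3.

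Within a library, the make-up of the heavy chain can be given as ratios, which do not depend on how much leukemia RNA a sample holds as long as the genes come from the same cells. The secreted form made up 68.6%, 67.3%, 74.4% and 71.9% of Ighm counts in wt spleen and 57.3%, 50.7%, 57.4% and 56.0% in ko spleen. For the PC the values were 54.9%, 54.9%, 58.4% and 55.6% in wt and 48.0%, 49.7%, 45.4% and 49.4% in ko. Both compartments separated fully, with lower shares in ko. The means were 70.6% ± 3.20 and 55.4% ± 3.18 in the spleen (SD, n = 4), a difference of −15.2 percentage points, and 56.0% ± 1.67 and 48.1% ± 1.96 in the PC (n = 4), a difference of −7.84 points. Each had an exact two-sided permutation p of 0.0286, the smallest that 4 against 4 samples allow, and an adjusted p of 0.0571 over the 12 tests of 4 measures in 3 compartments, none of which passed 0.05. In vitro the means were 68.6% ± 10.9 and 60.9% ± 3.52 (n = 3, exact permutation p = 0.400, with 0.100 the smallest possible). Without wt spleen replicate 4 the spleen difference was −14.7 points (exact permutation p = 0.0286), while the in vitro difference was −2.49 points without wt in vitro replicate 1 (exact permutation p = 0.700), −13.4 without replicate 2 (p = 0.100) and −7.31 without replicate 3 (p = 0.700).

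The ratio of Ighd to Ighm counts was higher in ko than in wt libraries of the spleen and PC. Its log2 value was −7.76, −7.74, −8.39 and −9.57 in wt spleen and −7.40, −7.03, −7.72 and −7.62 in ko spleen, where wt spleen replicate 4 was the lowest. In the PC it was −9.01, −8.84, −9.09 and −8.93 in wt and −7.79, −8.12, −8.10 and −8.13 in ko. The groups did not overlap in either compartment, and the differences of means were 0.92 and 0.93 (exact permutation p = 0.0286 in both, adjusted p = 0.0571). Without wt spleen replicate 4 the spleen difference was 0.52 (exact permutation p = 0.0571). In vitro the difference was 0.68 (exact permutation p = 0.700), or 0.92 without wt in vitro replicate 3, with wt libraries from −9.70 to −6.67 around the ko libraries.

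**Figure D4:**
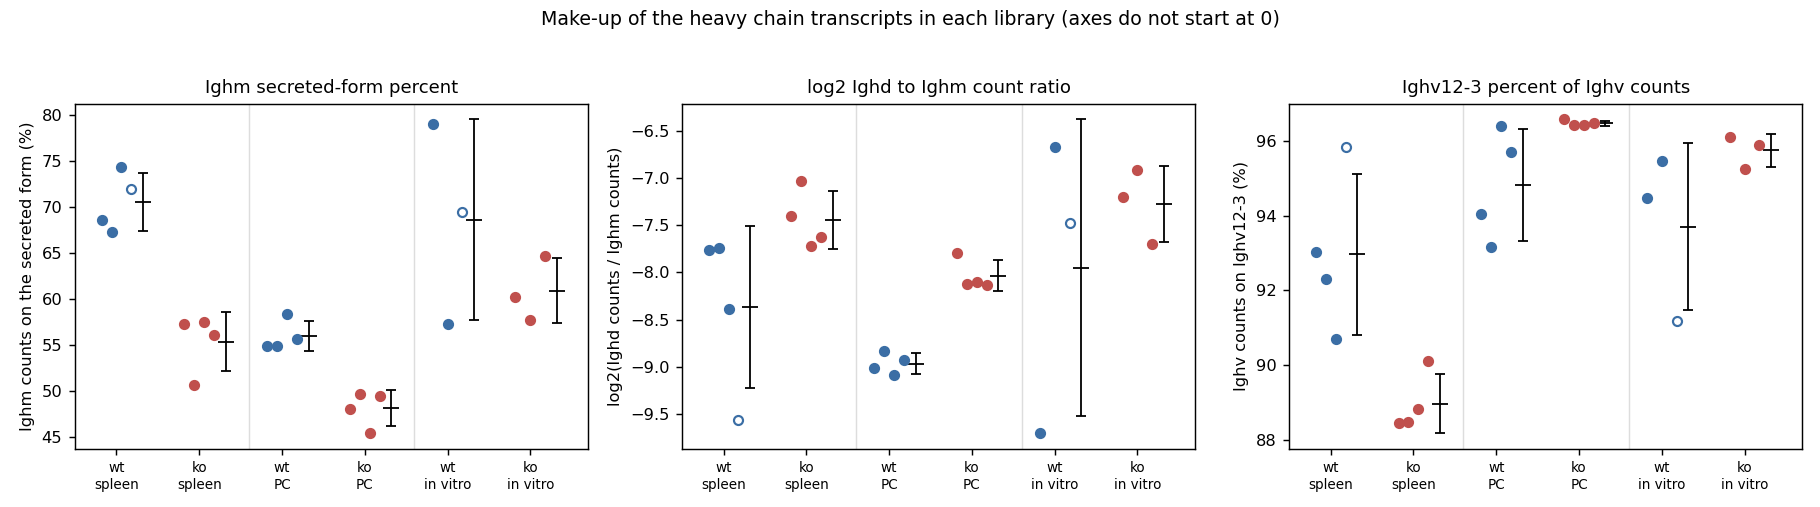
Make-up of the heavy-chain transcripts in each of the 22 libraries by group, with open points for the 2 libraries that stand apart and axes that do not start at 0. In spleen and PC the secreted share of Ighm is lower and the log2 ratio of Ighd to Ighm counts higher in every ko library than in every wt library, while the share of Ighv12-3 among Ighv counts is lower in ko spleen and higher in ko PC.

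The share of Ighv12-3 among Ighv counts lay lower in ko than in wt spleen and higher in ko than in wt PC. It was 93.0%, 92.3%, 90.7% and 95.9% in wt spleen against 88.5%, 88.5%, 88.8% and 90.1% in ko spleen. In the PC it was 94.0%, 93.2%, 96.4% and 95.7% in wt against 96.6%, 96.4%, 96.4% and 96.5% in ko. Neither pair of groups overlapped, though in the PC the nearest libraries stood at 96.41% (wt) and 96.43% (ko), and the differences were −4.01 and 1.65 points (exact permutation p = 0.0286 in both, adjusted p = 0.0571), the first becoming −3.04 without wt spleen replicate 4. Since Ighv5-6 takes almost all of the rest, these values and its counts are 1 measurement and not independent. In vitro the shares averaged 93.7% and 95.8%, a difference of 2.05 points (exact permutation p = 0.200), or 0.784 points without wt in vitro replicate 3. The share of Igkv4-91 among Igkv counts averaged 91.1% and 87.7% in the spleen, 90.1% and 90.0% in the PC, and 92.3% and 91.6% in vitro in wt and ko (exact permutation p of 0.114, 0.800 and 0.400), and differed by −2.63 points without wt spleen replicate 4 and −0.220 points without wt in vitro replicate 3.

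Between compartments, membrane Ighm was higher in the PC than elsewhere. In wt cells it was the only member called in the PC over the spleen (4.12% of transcripts were called), with a log2 fold change of 0.71 (SE 0.13, adjusted p = 0.0145), or 0.68 without the 2 libraries that stand apart (adjusted p = 0.0475). Over wt culture it was also the only member (2.83%), at 0.64 (SE 0.14, adjusted p = 0.0394), but with those libraries left out the call was lost (0.67, adjusted p = 0.0602). No member was called between wt spleen and wt culture, where 1 of 39317 transcripts was (0.00254%), 1127 transcripts but no member having an unadjusted p under 0.05 (edgeR). In ko cells membrane Ighm was higher in the PC than in the spleen by 0.33 (SE 0.08, adjusted p = 0.0133) and than in culture by 0.53 (SE 0.09, adjusted p = 0.00166).

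In wt cells, the call over the spleen was also lost without wt PC replicate 1 (0.71, adjusted p = 0.0515). The call of membrane Ighm over culture was lost with most single libraries left out, at adjusted p values up to 0.143 (without wt in vitro replicate 1). The secreted share of Ighm was lower in the PC than in the spleen, with a difference of −14.6 points in wt and −7.24 points in ko (exact permutation p = 0.0286 in both, adjusted p = 0.0571 over 8 tests added after the values were seen), and −14.1 points in wt without wt spleen replicate 4.

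In ko cells 3 members were called between PC and spleen (25.9% of transcripts), 1 between spleen and culture (13.4%) and 2 between PC and culture (21.0%). Neither kappa V gene was among them. Ighv12-3 was higher in the PC than in the spleen by 0.47 (SE 0.10, adjusted p = 0.00550). Ighv5-6 fell by 1.36 from the spleen to the PC (SE 0.09, adjusted p = 5.46e-06) and was 1.18 higher in the spleen than in culture (SE 0.10, adjusted p = 4.97e-05). Both were past 2-fold, where 4.94% of transcripts passed as lower in the PC and 4.45% as higher in the spleen over culture. Its levels of 45.3 to 54.3 CPM in ko spleen were above all ko PC (18.4 to 20.8 CPM) and ko culture libraries (20.7 to 24.4 CPM). Membrane Ighd was lower in ko PC than in ko culture by a log2 difference of −0.67 (SE 0.19, adjusted p = 0.0297), a call lost without ko in vitro replicate 1 (adjusted p = 0.103) or 2 (0.143), or ko PC replicate 2 (0.0723), 3 (0.0737) or 4 (0.0624).

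The other immunoglobulin transcripts, outside the members, give the setting. In the PC, 29 of them were tested between genotypes, of which 2 rose and 6 fell, where 7.89% of all transcripts rose and 5.07% fell. None of 27 in the spleen or 25 in vitro passed, nor any without wt spleen replicate 4 (29 tested) or wt in vitro replicate 3 (26 tested). The IgA gene Igha (1.04) and the IgG gene Ighg2c (2.70) rose in ko PC on the log2 scale. Summed per gene, Igha lay at 11.4 to 17.5 CPM in wt PC and 19.2 to 24.5 CPM in ko PC. Ighg2c was near the floor, at 0.118 to 0.170 CPM in wt PC and 0.885 to 1.13 CPM in ko PC. Ighg1, the IgG1 constant gene, fell in both of its transcripts (−2.88 and −3.12), from 90.3 to 116 CPM in wt PC to 12.1 to 13.3 CPM in ko PC. The lambda constant genes Iglc1 (−0.37), Iglc2 (−0.61) and Iglc4 (−1.23) and the kappa V gene Igkv9-124 (−1.74) fell as well.

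Class-switched constant genes made up 0.597% to 4.72% of heavy constant counts in wt spleen and 1.34% to 1.90% in ko spleen, 3.18% to 3.51% and 3.07% to 3.84% in the PC, and 0.692% to 3.48% and 6.08% to 6.67% in vitro. The medians were 0.767% in wt and 1.48% in ko spleen, 3.31% and 3.34% in the PC, and 3.23% and 6.29% in vitro. Values without the libraries that stand apart are not given for this share or for the Ighg3 levels that follow. Ighg3, the IgG3 constant gene, stood at 240 to 272 CPM in ko culture and at 31.8 to 153 CPM in wt culture. Lambda constant genes made up 11.8% to 27.9% of light-chain constant counts, although lambda V genes held only 0.0515% to 0.437% of light-chain V counts. Igll1, of the surrogate light chain used by precursor B cells, was at most 0.510 CPM. Vpreb3, which is not counted here as part of that chain, fell in ko PC by 0.41 (SE 0.09, adjusted p = 0.0248), from 146 to 185 CPM to 108 to 137 CPM.

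Among 29 genes of the B-cell receptor and of immunoglobulin expression, 26 were tested in the spleen and PC and 25 in vitro. In the spleen 2 fell, the Jchain and Sdc1 named above, where 0.201% of all transcripts fell. In the PC 7 rose and 1 fell, all by less than 2-fold, where 7.89% of all transcripts rose and 5.07% fell, and in vitro none passed. The median log2 fold change of the list was 0.04, 0.02 and −0.10 in the 3 compartments, against −0.01, −0.01 and −0.02 over all transcripts.

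Of the receptor partners, Cd79a rose in the PC and Cd79b did not pass. Cd79a, the signaling subunit Igα, rose from 789 to 946 CPM in wt PC to 1009 to 1191 CPM in ko PC (0.32, adjusted p = 0.0242). Cd79b, the subunit Igβ, stood at −0.20 in the PC (adjusted p = 0.224), −0.90 in the spleen (adjusted p = 0.182) and −0.72 in vitro (adjusted p = 0.863). Its spleen value was −1.08 and passed without wt spleen replicate 4 (adjusted p = 0.0413), and without wt in vitro replicate 3 the in vitro value was −0.45 (adjusted p = 0.820). These values are of the Cd79b transcript with the highest mean level. Another Cd79b transcript stood at −0.79 in the spleen (edgeR adjusted p = 0.295) and −0.35 in vitro (0.863). Without wt spleen replicate 4 that transcript stood at −0.94 and did not pass (0.168). Cd81 (0.40), a tetraspanin, Cd5 (0.62), an inhibitory receptor of B-1 and CLL cells, and Ms4a1 (0.85), which encodes CD20, rose in ko PC. So did the kinases Btk (0.23) and Lyn (0.66) and the transcription factor Irf8 (0.88), while Ebf1 (−0.63), a B-lineage factor, fell, with adjusted p from 0.000725 to 0.0411 among these.

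Across the 22 libraries the kappa genes followed each other closely, with a Spearman rho of 0.922 between Igkc and Igkv4-91 on log2 CPM. Secreted Ighm stood at 0.615 with Ighv12-3 and 0.643 with Igkv4-91, whereas the 2 dominant V genes stood at only 0.242 with each other. Membrane Ighm had a rho of −0.278 with the secreted form and −0.588 with Igkv4-91, and membrane Ighd −0.758 with Ighv12-3. All of these are descriptions over libraries that share genotype, compartment and scaling.

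The genes most like a member over the 22 libraries were taken from 8891 genes with a mean of at least 10 CPM. Igkv4-91 was nearest to Igkc (rho 0.914), then Cnep1r1 (0.872), Atad1 (0.867), E2f3 (0.866) and Lin54 (0.843). Ighm, its forms summed, was nearest to Lrif1 (0.906), Ulk1 (0.897), Bet1 (0.887) and Cnot6l (0.878). Ighv12-3 was nearest to Cnot6l (0.881), Bmi1 (0.880), Ankib1 (0.868), Mks1 (0.866) and Atp2a2 (0.861), so that Cnot6l was near both heavy-chain genes and none of the genes named for Ighv12-3 or Ighm was an immunoglobulin gene.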

How the data were processed

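Bulk mRNA-seq (TruSeq, paired-end, NovaSeq 6000) was read from the authors' deposited table of estimated counts per transcript for 22 samples, made with SALMON 1.8 against the mouse build GRCm39, per the submitters' processing notes. Of its 62492 transcripts, 62147 were matched to GENCODE M39, and 0.619% of counts had no match. The estimated counts (69.5% of values were not whole) were rounded. Samples were grouped by title, and none was left out of the main fits. Total counts were 24036763 to 26581304 per library.

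Genotypes were compared within a compartment, and compartments within a genotype, with edgeR 4.0.16 (R 4.3.3; filterByExpr, TMM, robust quasi-likelihood F test, Benjamini-Hochberg over all tested transcripts). A change needed an adjusted p under 0.05, and a differentially expressed transcript also more than a 2-fold change. Levels are CPM with TMM factors over 22 libraries. Shares and the Ighd to Ighm ratio (pseudocount 1) were compared by exact two-sided permutation tests (Python 3.11.15, numpy 2.4.6). Fits were tested on simulated data. Alternatives were DESeq2 1.42.0, RLE factors, other low-count filters, scaling without immunoglobulin genes, counts summed per gene, all 22 samples in 1 fit, the replicate number as a block, and each replicate left out. Fits without the 2 libraries that stand apart, PC against spleen shares, refits of Ighm and Ighd summed per gene and of Jchain, Sdc1, Cd79b and Nfkbie with libraries left out, and the count of genes without overlap between genotypes were added after the values were seen.

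Named genes were the members with each transcript, the 10 most counted genes of each V family, all immunoglobulin constant genes, surrogate light-chain genes and Vpreb3, a list of 29 B-cell receptor genes (those called and the receptor partners Cd79a and Cd79b), and the 5 genes nearest to each of 3 members. Some of these genes are not reported here. The members and lists were chosen with earlier results of these data known. Sequences come from the GRCm39 genome with GENCODE M39.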

Additional observations from a re-analysis of the deposited data

Results flagged for a closer look

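Of 56 groups of 4 library values tested, 4 held a library far from the other 3, and chance flags about 5% of such groups. Igkv4-91 stood at 1423 CPM in ko PC replicate 2, against 1028 to 1087 CPM in the other 3, and its share of Igkv counts was 90.8% there, against 89.6% to 89.7%. Igkc stood at 2987 CPM in wt spleen replicate 3, against 4219 to 4304 CPM. The log2 ratio of Ighd to Ighm counts was −7.79 in ko PC replicate 1, against −8.13 to −8.10. The share of Ighv12-3 among Ighv counts was lower in every ko than in every wt library of the spleen (−4.01 percentage points) and higher in every ko than in every wt library of the PC (1.65 points), and the difference between the compartments was not tested.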

How the results depend on the processing

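Of 309 values of the main comparisons under an alternative, 296 were labelled unchanged. For counts of called members that meant an equal or similar count, often 0 in both settings. For shares it meant the same direction and side of the threshold. Most share tests could not pass even at their smallest possible p, so their side was fixed in advance. Among single members, 510 of 590 values kept their direction and side of the threshold. The count of 1 member changed in the PC became 0 with the replicate block and with all 22 samples in 1 fit, and was 0 to 1 with single libraries left out (0 without wt PC replicate 1 or 2 or ko PC replicate 2 or 3). The count between wt PC and wt culture was 0 to 1 (1 without wt in vitro replicate 2). In the PC the genotype difference in the Igkv4-91 share turned from −0.130 to 0.309 points among functional V genes only. Outside its family it was 0.381, and with single libraries left out −0.455 to 0.177. In both former settings the adjusted p was 0.0490 (exact permutation tests), each value being adjusted with main values of the other share tests. The smallest possible p in the PC, 0.0286, gave 0.0571 in the main share tests. The values under 0.05 thus came from the set adjusted together, and no main share test passed. In vitro the genotype difference in this share turned from −0.792 to 0.162 and 0.138 points. The in vitro difference in log2 Ighd to Ighm was −0.20 (without wt in vitro replicate 1) to 1.32. Among estimates close to 0, leaving out single libraries gave log2 fold changes of −0.10 to 0.34 for Ighv5-6 and −0.19 to 0.17 for Igkv4-77 in the spleen, −0.10 to 0.0456 for Igkv4-91 and −0.12 to 0.0383 for Igkc in the PC, and −0.79 to 0.0288 for Igkv4-91, −0.66 to 0.29 for Igkv4-77 and −0.53 to 0.41 for membrane Ighd in vitro. Summed per gene, Ighd ranged from −0.00935 to 0.45 in the spleen and −0.54 to 0.34 in vitro. Igkv4-91 in the PC was −0.0059 with the stricter filter and −0.0499 on counts summed per gene, and Igkc in the PC 0.0106 with all 22 samples. In these reversed values the cause was not tested.

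Whether replicate numbers pair the samples was not settled, since libraries with the same number were not set against differently numbered ones. Libraries with the same number deviated together in some groups and apart in others. Their correlations between ko and wt were −0.247 to 0.0770 in the spleen, −0.107 to 0.0425 in the PC and 0.0135 to 0.110 in vitro. Between spleen and PC they were −0.0164 to 0.140 in ko and −0.283 to 0.189 in wt. With the replicate number as a block, Ighd in vitro turned to 0.16 for the membrane form and 0.15 summed per gene. In the spleen, secreted Ighm (adjusted p = 0.440) and Ighm summed per gene (0.188) lost their calls. In the PC, Ighv12-3 (0.0533), Ighv5-6 (0.0588), membrane Ighm (0.133) and membrane Ighd (0.110) lost theirs, while secreted Ighm and Ighm summed per gene did not. Transcripts past the threshold in the spleen numbered 47 higher and 57 lower with edgeR, 420 and 493 with DESeq2, 0 and 0 with the block, and 126 and 131 without wt spleen replicate 4. With DESeq2, 114 transcripts were higher and 110 lower in vitro. All 22 samples in 1 fit ended the PC calls of Ighv12-3 (adjusted p = 0.221), membrane Ighm (0.289) and membrane Ighd (0.621), and brought Ighv12-3 in the spleen to 0.0280.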
